A study of Mus musculus with 2 samples.

Results

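Cyclins, cyclin-dependent kinases (CDKs) and the proteins of mitosis were examined in CD5+ gamma delta T cells sorted from spleen, of wildtype mice on the one hand and mice with the LAT3YF allele on the other. The members were taken by name: a gene was included when its symbol in the array's annotation began with 1 of 16 prefixes of cyclin, CDK, CDK inhibitor, mitotic kinase, centromere and SMC genes, or was 1 of 19 further mitosis symbols. Of the 4331 genes with a probe of their own, 65 met this rule, 54 by a prefix and 11 by symbol, and they were measured by 73 probes. The rule itself uses symbols and no measured value. No gene with the prefix Ccnb was among them. Kif22, Kif23, Hmmr, Stmn1, Tacc3, Nusap1, Anln and Mybl2, though named in the rule, had no probe annotated to them.

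LAT is a membrane adaptor of T cell receptor signalling, and the name 3YF denotes tyrosine residues replaced by phenylalanine in it. Gamma delta T cells are the T cells whose receptor is built of a gamma and a delta chain. Each of the 2 arrays carried total RNA of both populations, labelled in separate channels, and the dyes were reversed on the second array. One group was therefore CD5+ gamma delta T cells of wildtype spleen and the other the same sorted cells of LAT3YF spleen, and both had passed anti-CD5 magnetic beads and a cell sorter. The sources used here do not give age, sex, strain background, number of animals, pooling or any treatment. The values are log10 ratios between the populations, read as base 10, and carry no level of expression, so the sorted cell type could not be checked against the abundance of its defining markers. The - polarity array was multiplied by -1 so that both arrays run the same way. A positive ratio marks 1 population and a negative ratio the other throughout, but the sources used here do not say which sign is LAT3YF, so each statement can be read with the populations exchanged. Both arrays together make 1 replicate, so the populations could not be compared by a test, and an SD is the spread of the 2 arrays only.

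As background, a cell divides by switching CDKs on and off in turn. D-type cyclins with Cdk4 or Cdk6 start the cycle, E-type cyclins with Cdk2 carry it into DNA replication, and A- and B-type cyclins with Cdk1 drive mitosis. CDK inhibitors hold these kinases back, and the anaphase-promoting complex destroys mitotic cyclins once the spindle checkpoint is satisfied. Many genes of the last steps are silent in resting lymphocytes and are transcribed together after activation.

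A gene was called when both arrays gave it the same sign and its mean ratio reached 2-fold, which is 0.301 as a log10 ratio. This is a rule of size and not a test. By this rule 17 of the 65 members were called positive and 2 negative, against 3.72% of all 4331 genes called positive and 5.03% called negative. The 17 were Cdkn1a, Nek2, Mki67, Cdkn3, Ube2c, Top2a, Bub1, Plk4, Birc5, Cdk1, Ttk, Cks1b, Kif11, Kif20a, Aurkb, Ect2 and Cdca3, and the 2 were Cdk14 and Cdk20. At 1.5-fold, 30 members lay on the positive side and 4 on the negative side, where 8.43% and 9.44% of all genes did. At 3-fold, 2 members remained positive, Cdkn1a and Nek2, and 1 negative, Cdk14, beside 1.11% and 2.22% of all genes. With the + polarity array alone 18 members were past 2-fold on the positive side, 14 of the 17 among them, and 1 on the negative side, where 5.26% and 5.17% of all genes were. With the - polarity array alone 17 were positive, 16 of the 17 among them, and 4 negative, beside 7.07% and 10.1% of all genes. If the values were log2 rather than log10, 0 members would be called on either side, and with natural logs 1, Cdkn1a, on the positive side.

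The members as a whole lay toward the positive side. Their median log10 ratio was 0.140 (1.38-fold), against 0.00231 over all genes, and the single arrays gave 0.161 (+ polarity) and 0.131 (- polarity). Means above 0 were found for 47 of the 65 members (72.3%) and for 51.2% of all genes. The arrays gave the same sign for 52 members (80.0%), compared with 59.6% of all genes, and the median SD between the arrays was 0.0480 for the members and 0.0579 over all genes. In a ranking of all 4331 genes from the most positive ratio down, 11 members were in the first 100 and 32 in the first 500. The plot of every member on both arrays shows called genes in every role group except the cyclins.

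**Figure D1:**
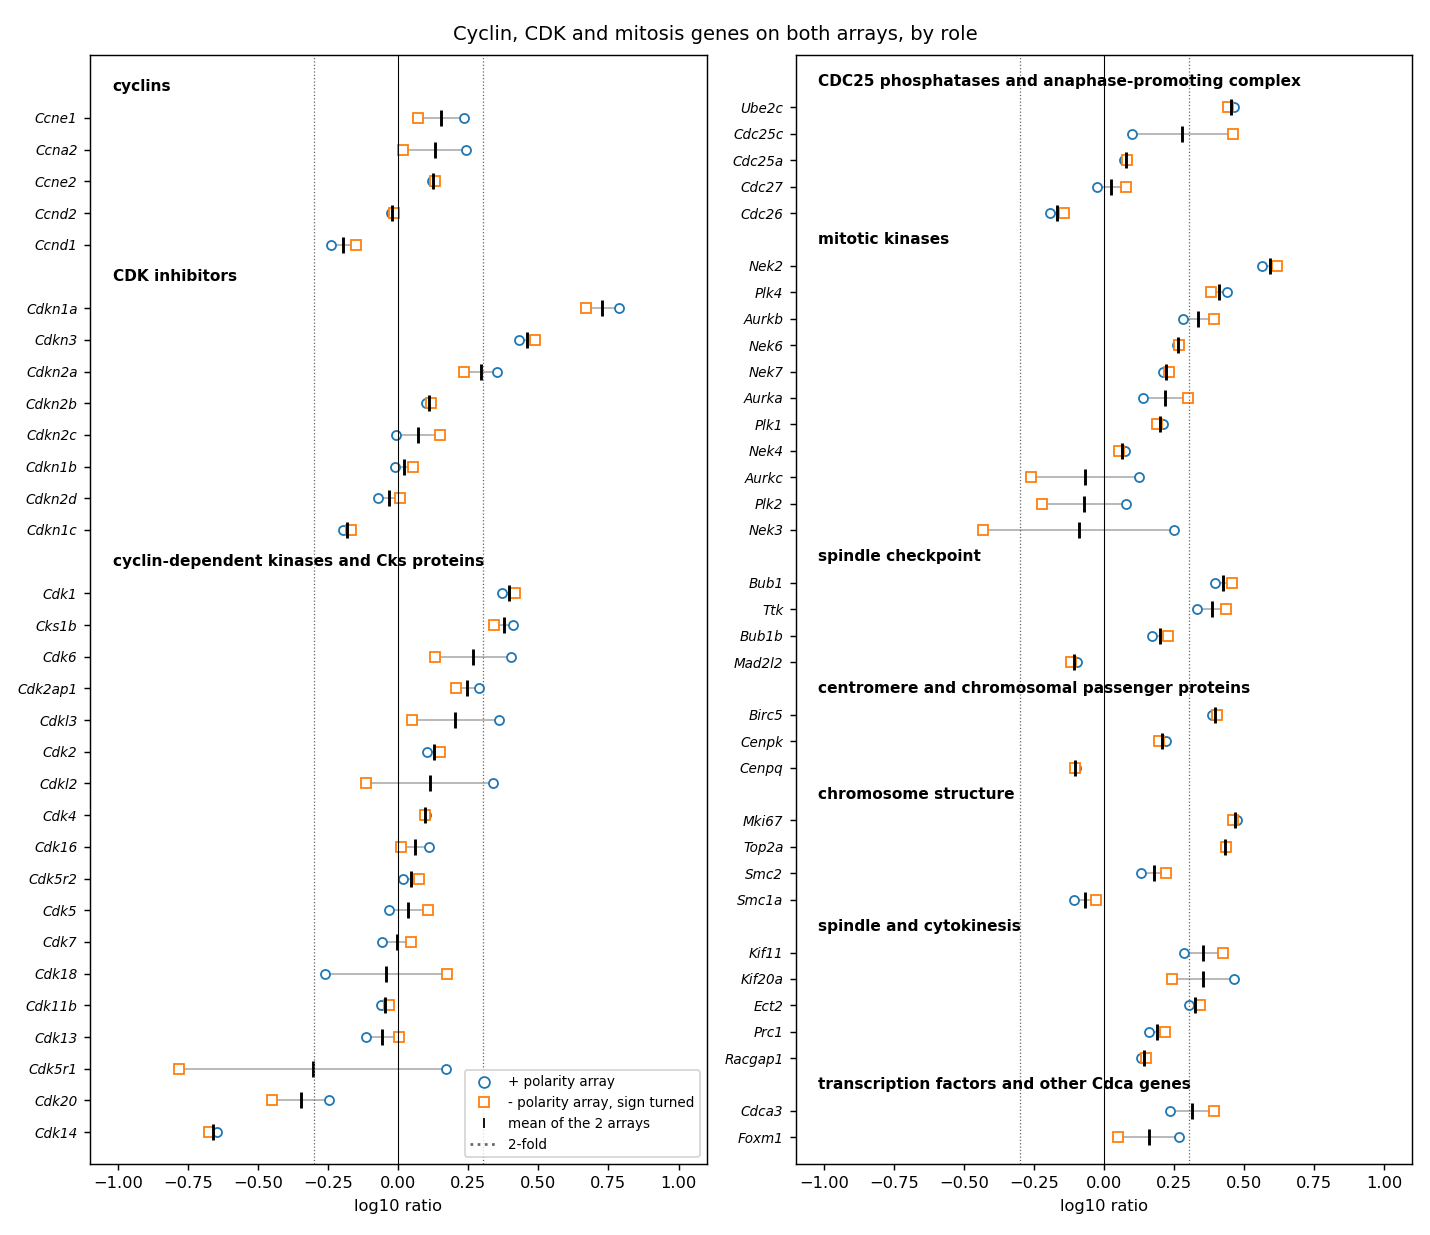
Log10 ratio of each of the 65 members on the + polarity array (circles) and the sign-turned - polarity array (squares), with the mean of the 2 arrays (black bar) and 2-fold as dotted lines, grouped by role. Cdkn1a and Nek2 lie farthest to the positive side with means of 0.728 and 0.590, Cdk14 farthest to the negative side at -0.660, and Cdk5r1 has its 2 arrays at 0.171 and -0.782.

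Promoter sequences of the members are shown here because most positively called members with a known promoter window held a pair of short elements. The elements were thus picked with the calls known. The name rule reads no sequence but is not independent of the pair. Of members with a window 34.0% held both elements, against 6.80% of measured genes outside the members. Many genes of late division carry a cell cycle genes homology region, or CHR (searched as TTTGAA or TTCGAA), together with CCAAT boxes, the binding letters of the factor NF-Y. Both elements were searched on both strands in RefSeq windows of GRCm38.p6 that reach from 250 bases before to 50 bases after a transcription start. Windows were matched for 53 of the 65 members, 10 of them with more than 1 window, and a gene was counted when any window held the letters. The unmatched members were Ccna2, Ccnd1, Ccnd2, Ccne2, Cdkn1c, Cdkl3, Cdk5, Cdk5r1, Cdc25c, Aurkb, Kif20a and Foxm1. The CHR and CCAAT letters overlapped each other in 0 of the 64 windows of the members.

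For the 5 positively called members whose last 100 upstream bases held a whole CHR and a whole CCAAT box, these bases are printed 5′ to 3′ on the strand of the gene. The CHR and CCAAT letters are in capitals, written TTCAAA and ATTGG where they lie on the opposite strand. They are shown to let the elements be seen in place, and their position near the start follows from how they were picked; the other 6 positively called members with both elements hold no such pair within these bases.
Ube2c (chr2:164769829-164769928, + strand): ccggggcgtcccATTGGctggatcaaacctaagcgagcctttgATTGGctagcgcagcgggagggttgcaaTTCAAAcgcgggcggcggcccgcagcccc
Top2a (chr11:99024190-99024289, - strand): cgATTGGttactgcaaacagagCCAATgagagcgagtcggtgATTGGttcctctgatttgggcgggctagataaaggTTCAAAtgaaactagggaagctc
Cdk1 (chr10:69352913-69353012, - strand): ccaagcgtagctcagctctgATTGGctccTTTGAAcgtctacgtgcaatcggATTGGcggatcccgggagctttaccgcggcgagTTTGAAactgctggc
Cks1b (chr3:89418292-89418391, - strand): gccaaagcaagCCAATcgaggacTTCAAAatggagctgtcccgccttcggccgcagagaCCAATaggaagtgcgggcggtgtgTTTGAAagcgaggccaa
Kif11 (chr19:37376282-37376381, + strand): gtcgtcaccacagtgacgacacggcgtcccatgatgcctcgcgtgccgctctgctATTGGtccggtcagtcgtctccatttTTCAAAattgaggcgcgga

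In these 5 stretches the CHR closest to the start began between 15 bases (Cdk1) and 29 bases (Ube2c) before it. The next CCAAT box upstream of that CHR began 28 bases before it in Ube2c, 35 in Top2a, 33 in Cdk1, 24 in Cks1b and 26 in Kif11. For contrast, the same 100 bases are given for Plk4, which was called positive, and for Cdk14, which was called negative. The windows of both genes hold neither set of letters, so the stretches have no capitals.
Plk4 (chr3:40799851-40799950, + strand): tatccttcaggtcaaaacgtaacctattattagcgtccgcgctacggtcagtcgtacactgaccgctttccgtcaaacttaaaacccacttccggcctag
Cdk14 (chr5:5380252-5380351, - strand): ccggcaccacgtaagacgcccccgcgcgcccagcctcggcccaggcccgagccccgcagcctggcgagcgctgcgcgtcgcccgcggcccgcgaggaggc

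Both CHR and CCAAT letters were found in the same window for 18 of the 53 members, and all 18 had a mean ratio above 0, from 0.0595 (Cdk16) to 0.467 (Mki67), with a median of 0.338. Of these 18 members 11 were called positive and 0 negative: Mki67, Cdkn3, Ube2c, Top2a, Bub1, Cdk1, Ttk, Cks1b, Kif11, Ect2 and Cdca3. The 7 that were not called were Aurka, Plk1, Bub1b, Prc1, Smc2, Racgap1 and Cdk16. The other 35 members with a window had a median of 0.0635 and a range from -0.660 to 0.728, with 4 called positive (Cdkn1a, Nek2, Plk4 and Birc5) and 2 negative. These 35 include genes known mainly for work outside mitosis, such as Cdk11b, Cdk13 and Cdk5r2. The elements and a role in mitosis were therefore not separated by this split. By class, 18 members held CCAAT letters alone (median 0.0575), 2 held CHR letters alone (0.108 for Cdkn2b and -0.0914 for Nek3) and 15 held neither (median 0.0635).

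Letters this short are common. Both elements were found in 7.52% of all 32851 windows of this length, CHR letters in 19.2% and CCAAT letters in 37.4%. Of 3422 measured genes with a window, 7.22% held both, compared with 73.3% of the 15 positively called members with a window and 19.4% of the 36 uncalled ones. Outside the members, 3.49% of 229 genes with both elements were called positive and 3.18% of 3140 genes without, with medians of 0.00349 and 0.00152. Letters bound by E2F factors (TTCCCGC, besides which TTGGCGC, likewise also TTCGCGC and finally the form TTGCCGC, on both strands) were found for 4 of the 15 positively called members, namely Mki67, Plk4, Cdk1 and Ect2, for 8 of the 36 uncalled members and for 16.9% of measured genes. A match describes letters in a window and is not a binding site.

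**Figure D2:**
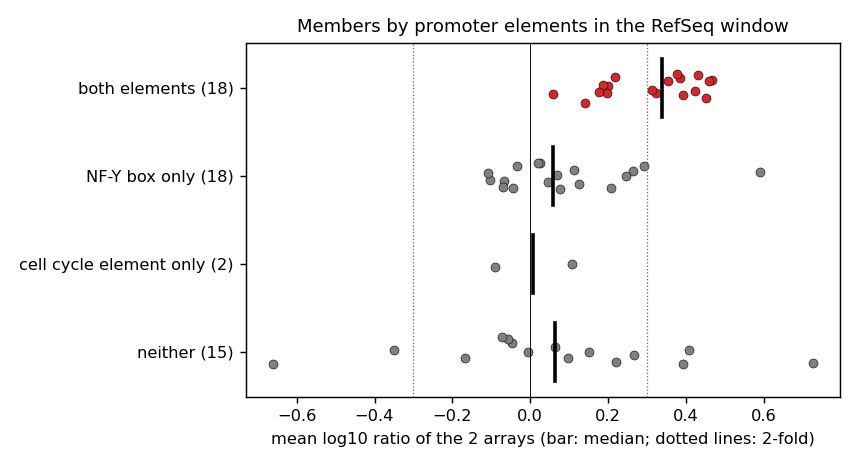
Mean log10 ratio of the 53 members with a RefSeq promoter window, by whether the window holds both the cell cycle homology element and the NF-Y box, 1 of them or neither; bars are medians and dotted lines 2-fold. The 18 members with both lie between 0.0595 and 0.467, while the other classes lie on both sides of 0.

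The cyclins, which activate the CDKs, had small ratios, and 0 of 5 was called, beside 3.72% of all genes called positive and 5.03% negative. In role groups this small, call counts do not separate 1 role from another. Ccne1, an E-type cyclin of the entry into DNA replication, had a log10 ratio of 0.235 on the + polarity array and of 0.0694 on the other (mean 0.152 ± 0.117, 1.42-fold), the highest of the group. Its relative Ccne2 stood at 0.119 and 0.130 (0.125 ± 0.00742). Ccna2, the A-type cyclin of DNA replication and mitotic entry, was at 0.242 and 0.0182 (0.130 ± 0.158), a mean smaller than its spread. Of the D-type cyclins, which respond to growth signals, Ccnd1 lay on the other side and Ccnd2 near 0. Ccnd1 was at -0.242 and -0.152 (-0.197 ± 0.0634, 1.57-fold), and Ccnd2 was at -0.0263 and -0.0172. Each of these 2 types was read from 2 genes only, at sizes below 2-fold.

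The CDK inhibitors held the most positive member. Cdkn1a, which encodes p21, an inhibitor of CDKs that also binds PCNA and is a target of p53, had ratios of 0.786 and 0.670 (0.728 ± 0.0824, 5.35-fold), and ranked 20 of 4331 genes from the positive end. Cdkn3, a phosphatase that removes the activating phosphate from CDKs, followed at 0.431 and 0.486 (0.459 ± 0.0388, 2.87-fold). Both genes were past 2-fold on each array. Cdkn2a, whose locus encodes p16INK4a and p19ARF, was just under the threshold at 0.352 and 0.235 (0.293 ± 0.0822, 1.96-fold), and the sources used here do not say which of its products the probe reads. The other INK4 inhibitors of Cdk4 and Cdk6 were closer to 0, with 0.108 ± 0.0123 for Cdkn2b, 0.0699 ± 0.110 for Cdkn2c and -0.0327 ± 0.0564 for Cdkn2d. Cdkn1b, which encodes the inhibitor p27 of resting cells, was at -0.0119 and 0.0528, so that its arrays fell on both sides of 0. Cdkn1c, which encodes p57, was the lowest at -0.196 and -0.170 (-0.183 ± 0.0181). Within the Cip/Kip family the p21 gene was thus high on both arrays, the p27 gene near 0 and the p57 gene negative on both.

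Among the kinases, Cdk1 and its partner Cks1b were called positive. Cdk1, which drives entry into mitosis, was at 0.371 and 0.415 (0.393 ± 0.0313, 2.47-fold), and Cks1b, a small protein that binds CDKs and helps them meet their substrates, was at 0.410 and 0.342 (0.376 ± 0.0480, 2.38-fold). Cdk2, the partner of E- and A-type cyclins, was at 0.102 and 0.150 (0.126 ± 0.0336), and Cdk4, the G1 kinase bound by D-type cyclins, at 0.0998 and 0.0936 (0.0967 ± 0.00441, 1.25-fold). These kinases had the same sign on both arrays, with Cdk1 above Cdk2 and Cdk4 on each. Cdk6, the other G1 kinase, had gene values of 0.402 and 0.131 (0.267 ± 0.191), above Cdk1 on the + polarity array and below it on the other, and its 2 probes gave means of 0.431 and 0.103. Cdk7, which activates other CDKs and takes part in transcription, was at -0.0567 and 0.0449. Cdk2ap1, an associated protein of Cdk2, was at 0.287 and 0.206 (0.247 ± 0.0573, 1.76-fold).

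Several genes that the name rule brought in are known mainly for other work, and most of them were near 0. Cdk11b and Cdk13, kinases of transcription and splicing, had means of -0.0475 ± 0.0220 and -0.0566 ± 0.0821. Cdk5, best known from neurons, was at 0.0362 ± 0.0981, its activator gene Cdk5r2 at 0.0452 ± 0.0421 and Cdk16 at 0.0595 ± 0.0704. The 2 negative calls also fell among the kinases. Cdk14, a kinase of the PFTAIRE family that pairs with the membrane-bound cyclin Y, was at -0.647 and -0.674 (-0.660 ± 0.0193, 4.58-fold), and ranked 47 from the negative end of all genes. Cdk20, also called cell cycle-related kinase, was at -0.248 and -0.450 (-0.349 ± 0.143, 2.23-fold), and was below 2-fold on the + polarity array alone. Cdk5r1, the gene of the Cdk5 activator p35, had a mean of -0.306 ± 0.674 that was not called, because its ratio was 0.171 on the + polarity array and -0.782 on the other. Cdk18 (-0.261 and 0.174) and the CDK-like kinase gene Cdkl2 (0.339 and -0.116) also had opposite signs more than 2-fold apart. The 3 probes of Cdkl3 had means from -0.00360 to 0.438 and gave a gene mean of 0.202 ± 0.220.

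Of the genes that switch Cdk1 on and clear mitotic cyclins, 1 of 5 was called positive, beside 3.72% of all genes. Ube2c, the ubiquitin-conjugating enzyme of the anaphase-promoting complex, was at 0.462 and 0.442 (0.452 ± 0.0141, 2.83-fold), past 2-fold on each array and with both promoter elements shown above. Subunits of the complex itself were below 2-fold and lay on both sides of 0: Cdc27 was at -0.0259 and 0.0776, and Cdc26 at -0.194 and -0.143 (-0.168 ± 0.0361, 1.47-fold). Of the subunit genes outside the members, Anapc4 was at 0.159 ± 0.0477, Anapc11 at 0.0447 ± 0.0310, Anapc1 at -0.0536 ± 0.00580 and Anapc5 at -0.102 ± 0.0417. Cdc25c, a phosphatase that activates Cdk1, differed between the arrays with 0.0977 and 0.461 (0.279 ± 0.257). Cdc25a, which acts earlier in the cycle, was at 0.0720 and 0.0812 (0.0766 ± 0.00647).

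The mitotic kinase families were divided by member. Nek2, which separates the centrosomes before mitosis, had the second largest ratio on the positive side among the members at 0.564 and 0.617 (0.590 ± 0.0373, 3.89-fold). Plk4, the kinase that controls centriole duplication, was at 0.437 and 0.381 (0.409 ± 0.0400, 2.56-fold). Aurkb, the kinase of the chromosomal passenger complex, was at 0.279 and 0.392 (0.336 ± 0.0798, 2.17-fold), and so below 2-fold on the + polarity array alone. All 3 were positive on both arrays. Nek6 and Nek7, kinases that act with Nek9 in spindle assembly, were at 0.264 ± 0.00509 and 0.221 ± 0.0152, below the threshold but close on the 2 arrays. Aurka, of the spindle poles, was at 0.138 and 0.298 (0.218 ± 0.113), and Plk1, which acts through most steps of mitosis, at 0.210 and 0.189 (0.199 ± 0.0149, 1.58-fold). Nek4 was near 0 at 0.0635 ± 0.0157. The remaining 3 kinases had opposite signs on the arrays. Aurkc, which acts in germ cells, was at 0.124 and -0.260, the stress-induced Plk2 at 0.0774 and -0.224, and Nek3 at 0.248 and -0.431. Nek3 and Cdk5r1 were the 2 members (3.08% of 65) whose signs opposed and whose dye component, the part that changes sign between the arrays, was past 2-fold, a pattern that 4.18% of all genes showed.

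Spindle checkpoint genes were called positive in 2 of 4 cases, beside 3.72% of all genes. Bub1, a kinetochore kinase of the checkpoint, was at 0.394 and 0.455 (0.425 ± 0.0427, 2.66-fold), and Ttk, which encodes the checkpoint kinase MPS1, at 0.333 and 0.436 (0.384 ± 0.0726, 2.42-fold). Bub1b, which encodes BUBR1, was lower at 0.170 and 0.227 (0.199 ± 0.0402, 1.58-fold). These 3 genes were positive on both arrays. Mad2l2 lay on the other side at -0.0980 and -0.119 (-0.109 ± 0.0151). It encodes MAD2B, a subunit of the translesion polymerase zeta, and shares its name more than its task with the checkpoint gene Mad2l1.

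At the centromere and on the chromosomes, the classical markers of dividing cells had the largest ratios. Birc5, which encodes survivin of the chromosomal passenger complex, was at 0.385 and 0.403 (0.394 ± 0.0129, 2.48-fold). Mki67, the gene of the Ki-67 antigen that coats mitotic chromosomes, was at 0.474 and 0.459 (0.467 ± 0.0105, 2.93-fold), and Top2a, the topoisomerase that untangles sister chromatids, at 0.430 and 0.433 (0.431 ± 0.00255, 2.70-fold). The arrays differed less for these 3 genes than for the median member. Cenpk, of the constitutive centromere network, was at 0.219 and 0.195 (0.207 ± 0.0173, 1.61-fold), whereas Cenpq of the same network was at -0.0998 and -0.106 (-0.103 ± 0.00409). Smc2, a core subunit of the condensins that compact chromosomes for mitosis, was at 0.131 and 0.222 (0.176 ± 0.0640). Smc1a, a subunit of the cohesin ring that is also present outside mitosis, was at -0.109 and -0.0297 (-0.0694 ± 0.0561). A further probe, annotated to both Primpol and Cenpu and therefore left out, was at -0.0784 and -0.0870.

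All 5 measured genes of the spindle and of cytokinesis were positive on both arrays, and 3 of them were called, beside 3.72% of all genes called positive. Kif11, the motor that pushes the spindle poles apart, was at 0.286 and 0.423 (0.354 ± 0.0970, 2.26-fold), and its 2 probes had means of 0.397 and 0.312. Kif20a, a motor of the central spindle, was at 0.461 and 0.242 (0.352 ± 0.155, 2.25-fold). Ect2, the exchange factor that activates RhoA at the cleavage furrow, was at 0.302 and 0.343 (0.322 ± 0.0293, 2.10-fold). Kif11 was below 2-fold on the array of + polarity and Kif20a on that of - polarity. Prc1, which bundles the microtubules of the midzone, was at 0.161 and 0.215 (0.188 ± 0.0385, 1.54-fold). Racgap1, the centralspindlin subunit that partners with Ect2, was at 0.133 and 0.148 (0.140 ± 0.0110, 1.38-fold).

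Foxm1, the transcription factor that drives many mitotic genes, was not called, at 0.268 and 0.0486 (0.158 ± 0.155, 1.44-fold), a mean about as large as its spread. Cdca3, a trigger of mitotic entry that promotes degradation of Wee1, was at 0.234 and 0.393 (0.314 ± 0.112, 2.06-fold), and was below 2-fold on the + polarity array alone. It was the called member closest to the threshold, and Cdkn2a, at 0.293, the uncalled one closest to it from below. The highest medians of the role groups were 0.322 for spindle and cytokinesis, 0.304 for chromosome structure and 0.291 for the spindle checkpoint. The mitotic kinases had a median of 0.218, the CDK inhibitors 0.0890 and the CDKs with Cks1b 0.0524. The order of neighbouring groups changed between the arrays: the CDK inhibitors had medians of 0.0456 (+ polarity) and 0.132 (- polarity), the CDKs with Cks1b 0.101 and 0.0610, and the spindle and cytokinesis genes 0.286 and 0.242 against 0.252 and 0.331 for the spindle checkpoint.

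**Figure D3:**
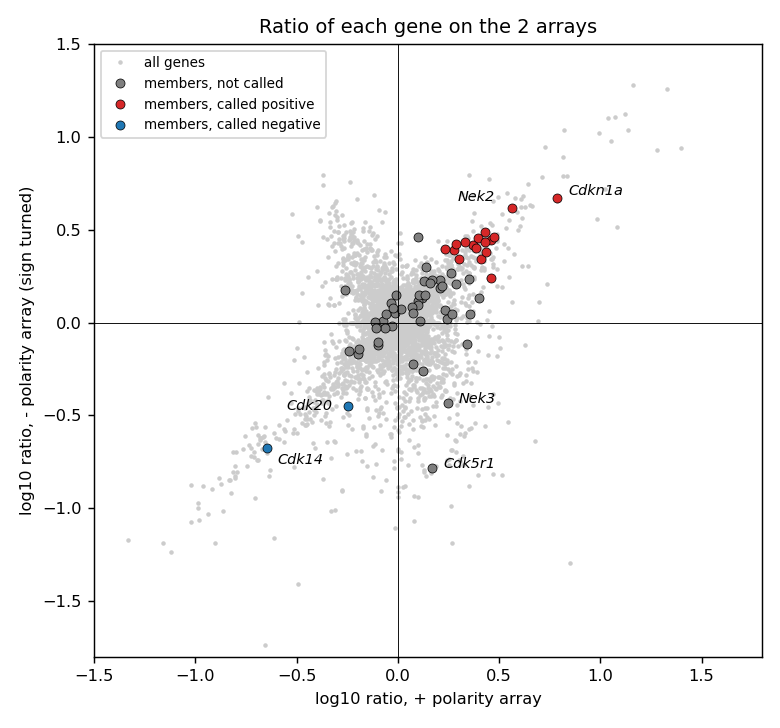
Log10 ratio of each gene on the + polarity array against the sign-turned - polarity array, with all 4331 genes in grey and the 65 members coloured by call. The 17 positively called members lie together in the upper right between 0.234 and 0.786 on the + polarity array, Cdk14 and Cdk20 in the lower left, and Nek3 and Cdk5r1 in the lower right, where the arrays disagree in sign.

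Genes of division outside the members had medians of a like size. Their lists were chosen with earlier results of these data known, so they give no independent support. Of the 48 genes of a mitosis list, 11 were measured outside the members. Of these, 3 were called positive (27.3%) and 0 negative, beside 3.72% and 5.03% of all genes. Means above 0 were found for 10, with a median of 0.144. The arrays had opposite signs for 3 of the 11, among them Ccnf (0.465 and -0.0193) and Cit (0.266 and -0.153). The called genes were Tpx2, an activator of Aurka, at 0.401 and 0.431 (0.416 ± 0.0214, 2.60-fold), the kinase gene Melk at 0.361 ± 0.0939 and the lamin gene Lmnb1 at 0.354 ± 0.0883. Of the 65 genes of an S phase list, 23 were measured outside the members, with a median of 0.132. Means above 0 were found for 20, and the arrays had opposite signs for 5. Called negative were 0, and called positive were 4 (17.4%). They were led by Rrm2, the S phase subunit of ribonucleotide reductase, at 1.28 and 0.931 (12.7-fold), which exceeded every member. Hells, a chromatin remodeller, and Tk1, the thymidine kinase of dividing cells, followed at 0.457 ± 0.220 and 0.361 ± 0.0126. Cdc45, of the replication helicase, was the fourth called gene at 0.306 ± 0.127, while the lowest of the 23 was the helicase subunit gene Mcm6 at -0.245 ± 0.0483.

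**Figure D4:**
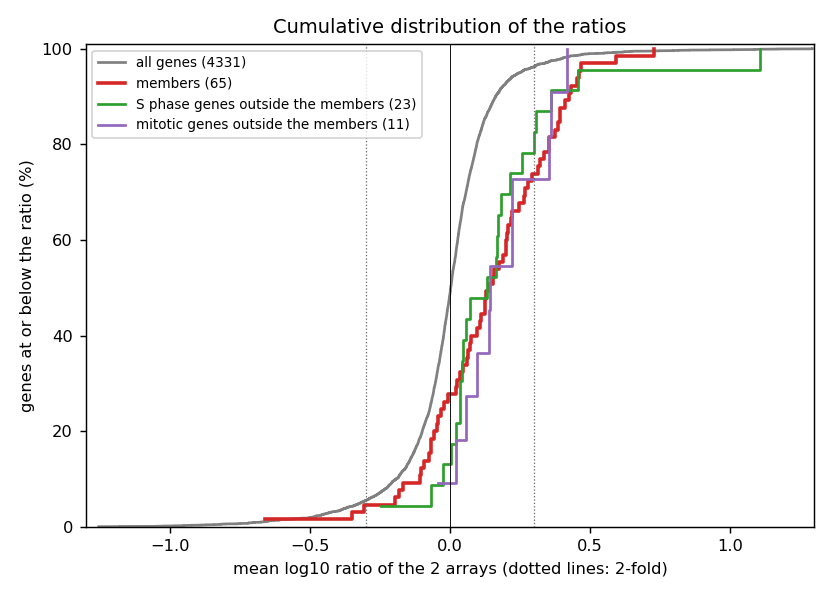
Share of genes at or below each mean log10 ratio for all 4331 genes, the 65 members, and the 23 S phase and 11 mitosis genes outside them. Dotted lines are 2-fold. The curve of the members crosses its midpoint at 0.140 and those of the other division genes at 0.132 and 0.144, while that of all genes crosses at 0.00231.

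A mixed list of cycle regulators outside the members had a median near 0. Of 27 measured genes of the RB and E2F pathway and of CDK control, 2 were called positive and 1 negative, with a median of 0.0277. These are 7.41% and 3.70% of the list, beside 3.72% and 5.03% of all genes. The list also holds the anaphase-promoting complex genes Anapc1, Anapc4, Anapc5 and Anapc11, so it is not confined to upstream steps. Rbl2, which encodes the RB relative p130 of resting cells, was at 0.373 and 0.491 (0.432 ± 0.0837, 2.70-fold), and Tfdp1, the dimer partner of E2F factors, at 0.472 and 0.313 (0.392 ± 0.113, 2.47-fold). Gadd45a, a growth arrest gene, was called negative at -0.339 and -0.394 (-0.366 ± 0.0390, 2.32-fold). Of 20 listed genes linked to quiescence 6 were measured, and all 6 had means below 0 (median -0.185). Among them Il7r was at 0.00098 and -0.0135 and Klf2 at -0.0391 ± 0.00398, both near 0. Called negative were 2, Rgs2 at -0.701 ± 0.0356 and Klf4 at -0.476 ± 0.0356, where 5.03% of all genes were. Rbl2 and Cdkn1b, also linked above to resting cells, were not in this list and had means above 0.

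Markers of macrophages, dendritic cells and NK cells lay mostly on the side opposite to the division genes. The call counts that follow stand beside 3.72% of all genes called positive and 5.03% called negative. Macrophage and dendritic cell genes had a median of -0.786 over the 17 measured and ranged from -1.05 to -0.0221, with 14 negative calls and 0 positive ones. The NK cell list had 6 negative calls among 9 genes (median -0.400), all of them lectin-like receptor genes: Klrd1, Klrb1c, Klra1, Klrc1, Klrk1 and Klra7. Its other genes were not called, with Ncr1 at -0.0723 ± 0.0307, Itga2 at 0.0766 ± 0.0431 and Tbx21 at 0.184 and -0.351. Which cells carried the receptor transcripts was not tested. The list of B and plasma cells had 4 negative calls among 15 genes (median -0.174) and 1 positive one, Prdm1, which encodes BLIMP1 and is also expressed in effector T cells, at 0.404 ± 0.0878. Among 7 genes of erythroid cells and platelets 2 were negative by the same rule (median -0.125). Of 8 neutrophil genes 0 was called (median 0.0135), and of 6 stromal genes 1 was called positive (median 0.0387). The arrays had opposite signs for 2 of the 7 erythroid, 7 of the 8 neutrophil and 4 of the 6 stromal genes. The neutrophil and stromal medians thus mostly average arrays that disagree, and do not show equal levels in the populations. Of 15 T cell genes 2 were called positive and 2 negative (median 0.0954): Cd5, the marker used in the sort, at 0.614 ± 0.00771, its relative Cd6 at 0.402 ± 0.0787, and the CD8 chain genes Cd8a and Cd8b1 at -1.20 ± 0.767 and -1.18 ± 0.0820. These are ratios, so the summed level of any marker list in each population is not known, and the part of these cells in the ratios of the division genes was not tested. In sorted pools, a larger share of dividing cells and more of these transcripts per cell cannot be told apart.

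**Figure D5:**
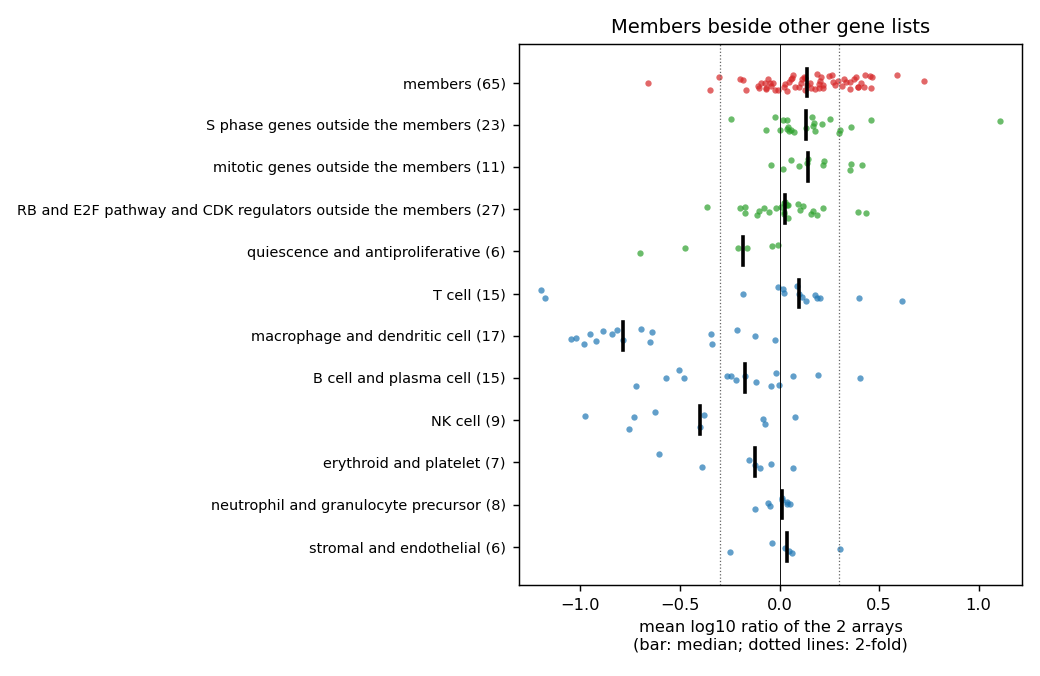
Mean log10 ratio of each gene in the 65 members, in lists of other cell cycle genes and in marker lists of spleen cell types, with the median as a bar and 2-fold as dotted lines; the number of measured genes is in brackets. Members and the S phase and mitotic genes outside them centre between 0.132 and 0.144. The RB, E2F and CDK regulator list centres at 0.0277 and the quiescence list at -0.185. Macrophage and dendritic cell genes centre at -0.786 and the NK cell list at -0.400.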

How the data were processed

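RNA of CD5+ gamma delta T cells from wildtype and LAT3YF spleens was compared on 2 dye-reversed arrays. The authors deposited 1 log ratio per probe and array. It was read as log10, since neither the labels nor the table names the base, and the median of the deposited log10 ratios was -0.00284 and 0.00101. The sources used here do not give the scanner, background correction, normalization or ratio numerator, and no intensities were used.

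Of 8014 probes, 4654 had 1 gene symbol in the platform annotation, 73 several and 3287 none listed. Probes of a gene were averaged (7 members had more than 1), and all 65 members were found in RefSeq GRCm38.p6 under the same symbol. The - polarity array was turned and the arrays averaged. A call needed a mean of 2-fold and the same sign on both arrays. Described in full were called members, the extremes of each role, and members with opposing signs more than 2-fold apart. Related genes can share probe signal.

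The members, lists and promoter letters were chosen with earlier results of these data known. Alternatives were other thresholds, centring, scaling, probe choices, log bases and single arrays. The rule was also run on simulated ratios with independent noise on each array, which does not measure its error rate on these 2 arrays. Python 3.11.15, pandas 2.3.3, numpy 2.4.6, scipy 1.17.1 and matplotlib 3.10.9 were used.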

Additional observations from a re-analysis of the deposited data

How the results depend on the processing

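The direction of the members' median was positive under each alternative run. It was 0.0422 with the values read as log2, 0.0610 as natural logs (both given on the log10 scale), between 0.131 and 0.161 with 1 array left out, and between 0.135 and 0.152 with centring, scaling, the largest probe per gene or probes of several genes added. The 17 positive calls became 30 at 1.5-fold, 2 at 3-fold, 0 as log2 and 1 as natural logs. They were 13 when each array had to pass 2-fold (2.68% of all genes), 17 with the + polarity array left out (7.07%), 18 with the - polarity array left out (5.26%), and 17 to 19 under the other settings (3.64% to 3.88%). With 1 array left out the share over all genes moved more than the count of members. The 2 negative calls became 4 at 1.5-fold, 1 at 3-fold, 0 as log2, 0 as natural logs, 1 when each array had to pass 2-fold, and 1 to 4 with 1 array left out (5.17% and 10.1%). The base of the logarithm therefore sets every fold given here, while signs, ranks and medians relative to each other do not depend on it. With 1 replicate and no intensities, small ratios of dim probes cannot be told from noise.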
